A study of Homo sapiens with 23 samples.

Results

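The 4 human Argonaute genes, *AGO1*, *AGO2*, *AGO3* and *AGO4*, and the 3 TNRC6 genes, *TNRC6A*, *TNRC6B* and *TNRC6C*, were followed through a panel of *AGO* knockout lines. They were chosen by name and matched to Ensembl identifiers, which found 7 of 7 among the 57875 genes listed, and all 7 passed the filter on low counts that left 22842 genes to be tested. RNA came from HCT116 cells, an established human colorectal carcinoma line, that were either wild type, AGO1-/-, AGO2-/-, AGO1-/- AGO2-/- or AGO1-/- AGO2-/- AGO3-/-, with 3 replicates of each of the 5 lines. All lines were grown untreated in the same serum-supplemented medium, and *AGO4* and the TNRC6 genes were edited in none of them. For RNA-seq the methods describe 1 CRISPR-edited line for each knockout genotype, so that genotype and line cannot be told apart. Whether a line is 1 clone is not given in the sources used here. The edits were made to remove protein, and the study reports that Western blots found the targeted proteins absent. RNA of an edited gene can still be made and counted. Total counts per library ranged from 27709971 to 45271146.

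Argonaute proteins hold a small RNA and use its seed, the bases near its 5′ end, to find matching sites in messenger RNA. AGO2 is the member best known for cutting a fully matched target. For the partial matches that microRNAs usually make, AGO docks on a TNRC6 protein (the GW182 family), a long flexible scaffold that recruits the CCR4-NOT and PAN2-PAN3 deadenylases and binds cytoplasmic poly(A)-binding protein, after which the message is decapped and decays. Because repression runs through the pair, the levels of the scaffolds were set beside those of the AGO genes in each line.

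The messages of these genes are themselves possible microRNA targets. Mature microRNAs that the study quantified in HCT116 cells are shown with their seed, bases 2 to 8, in capitals (RefSeq, GRCh38.p14), because the seed is the part of the guide that AGO presents to a target. hsa-let-7a-5p comes from 3 loci and shares its seed with hsa-let-7f-5p. hsa-miR-21-5p lies at chr17:59841273-59841294 on the plus strand and hsa-miR-27a-3p at chr19:13836447-13836467 on the minus strand.
hsa-let-7a-5p: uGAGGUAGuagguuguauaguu
hsa-let-7f-5p: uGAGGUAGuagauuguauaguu
hsa-miR-21-5p: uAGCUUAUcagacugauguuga
hsa-miR-27a-3p: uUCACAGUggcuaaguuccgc

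The 3′-UTR of the canonical GENCODE 44 transcript of each gene was searched, on the transcript strand alone, for the 7 bases that pair with a seed. These were CTACCTC for let-7, ATAAGCT for miR-21, ACTGTGA for miR-27a, TGGTGCT for miR-29a and CTCAGGG for miR-125b. The CTC that ends the let-7 motif opens the miR-125b motif, and matches were counted for each motif on its own. *TNRC6A*, with a 3′-UTR of 2411 bases, and *TNRC6C*, with 3977 bases, held none of the 5 motifs. *TNRC6B*, with 12567 bases, held 2 matches to miR-21 and 2 to miR-27a. The let-7 motif occurred in 9.77% of all 19538 3′-UTRs searched, the miR-21 motif in 8.58% and the miR-27a motif in 15.7%. Among 3′-UTRs within 20% of the length of *TNRC6B*, 53.4% held the miR-21 motif and 66.9% the miR-27a motif, so that its matches are common for that length. For the length of *TNRC6C*, the shares of 3′-UTRs with a match ran from 19.8% for miR-21 to 35.7% for miR-27a. For that of *TNRC6A* they ran from 12.0% for miR-21 to 23.1% for miR-27a. Seeds of other microRNAs were not searched.

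Matches followed by an A, the longer form of the site, are shown with the match and the A in capitals for the genes in which they occurred outside *AGO2* (hg38, plus strand, all in a 3′-UTR exon). The *AGO3* site lies at chr1:36069078-36069106, the *AGO4* site at chr1:35854693-35854721 and the *TNRC6B* site at chr22:40328069-40328097. *AGO3* held one further such match, to miR-29a.
AGO3, let-7 match: ctgtcctcacCTACCTCActaaattgttg
AGO4, miR-21 match: ttgttttaaaATAAGCTAgaaccaggatg
TNRC6B, miR-27a match: tctctgagacACTGTGAAgaaatggatgg
A match describes these letters alone. Binding of AGO2 to these transcripts was not analysed here.

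The 3 TNRC6 genes were highest in the line that lacks 3 *AGO* genes, and they differed in which other lines they stood above wild type. Levels are given as CPM, counts scaled to a common library size by TMM, a unit for comparing 1 gene between lines. *TNRC6A* (ENSG00000090905, chromosome 16 from 24610209 to 24827632) had 117.7, 94.63 and 120.7 CPM in the wild-type replicates, 140.7, 108.6 and 86.87 CPM in *AGO1* knockout cells and 134.9, 189.0 and 161.2 CPM in *AGO2* knockout cells. It had 179.7, 150.3 and 149.8 CPM in *AGO1/2* knockout cells and 254.8, 262.3 and 289.1 CPM in *AGO1/2/3* knockout cells. The *AGO1/2/3* knockout libraries were above all others, the *AGO2* and *AGO1/2* knockout libraries lay above wild type and overlapped each other, and the *AGO1* knockout libraries lay on both sides of wild type.

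*TNRC6B* (ENSG00000100354, chromosome 22 from 40044817 to 40335808) stood above wild type in each line that lacks *AGO1*. It had 184.0, 188.1 and 202.4 CPM in wild-type cells, 207.0, 239.5 and 280.4 CPM in *AGO1* knockout cells and 204.2, 178.0 and 190.9 CPM in *AGO2* knockout cells. In *AGO1/2* knockout cells it had 252.1, 293.2 and 270.7 CPM, and in *AGO1/2/3* knockout cells 327.8, 308.1 and 292.2 CPM. The *AGO2* knockout libraries overlapped wild type, with 1 above and 1 below its range, while every library of the 3 lines that lack *AGO1* lay above every wild-type library. The *AGO1/2* and *AGO1/2/3* knockout libraries overlapped.

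*TNRC6C* (ENSG00000078687, chromosome 17 from 77958703 to 78108822), the scaffold with the lowest level, moved mostly in the line that lacks 3 *AGO* genes. Its levels were 53.41, 49.91 and 46.94 CPM in wild-type cells, 60.78, 51.23 and 51.99 CPM in *AGO1* knockout cells and 48.54, 48.28 and 49.09 CPM in *AGO2* knockout cells. They were 69.91, 57.76 and 67.23 CPM in *AGO1/2* knockout cells and 118.6, 127.2 and 132.5 CPM in *AGO1/2/3* knockout cells. The *AGO1/2/3* knockout libraries stood clear of all others, and wild-type, *AGO1* and *AGO2* knockout libraries overlapped.

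**Figure D1:**
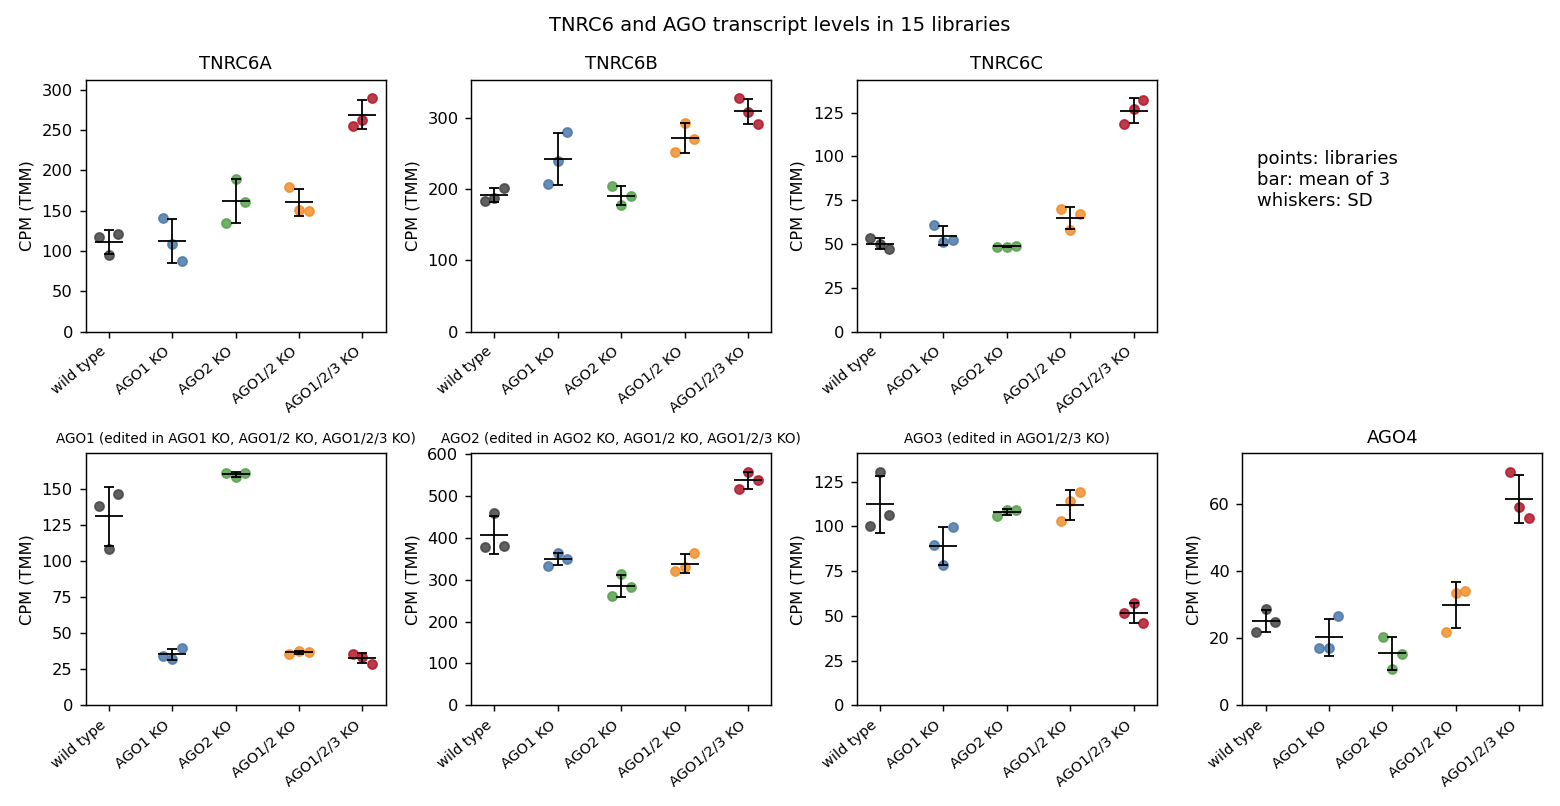
Level of each gene in CPM after TMM scaling (vertical axis, from 0) in the 5 lines (horizontal axis), with a point for each library, a bar for the mean and whiskers for the SD (n = 3). The 3 TNRC6 genes are highest in *AGO1/2/3* knockout cells, with *TNRC6A* also above wild type in *AGO2* knockout cells and *TNRC6B* above wild type in *AGO1* knockout cells.

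Differences from wild-type cells were tested in a single model by the quasi-likelihood method of edgeR, and p-values were Benjamini-Hochberg adjusted over all genes tested. With *AGO1*, *AGO2* and *AGO3* all knocked out, 3 of 3 TNRC6 genes rose, where 20.3% of all genes tested rose and 40.1% changed in either direction. *TNRC6C* rose 2.52-fold (log2 difference 1.33, standard error (SE) 0.10, adjusted p = 8.23e-08) and *TNRC6A* 2.42-fold (log2 difference 1.28, SE 0.17, adjusted p = 2.04e-05). *TNRC6B* rose 1.62-fold (log2 difference 0.69, SE 0.11, adjusted p = 0.000138). The median log2 difference of the 3 genes was 1.28 and that of all genes tested -0.01. These calls held under all 7 other settings and all 15 fits that left out 1 library.

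In *AGO1/2* knockout cells 3 of 3 TNRC6 genes also rose, where 8.37% of all genes tested rose. *TNRC6B* rose 1.42-fold (log2 difference 0.51, SE 0.11, adjusted p = 0.00511 by edgeR) and kept its call in each of the other settings and left-out libraries. *TNRC6A* rose 1.44-fold (log2 difference 0.53, SE 0.16, adjusted p = 0.0389) and *TNRC6C* 1.30-fold (log2 difference 0.38, SE 0.10, adjusted p = 0.0161), and both calls were easily lost. That of *TNRC6C* was lost without wild-type replicate 2 or 3 or *AGO1/2* knockout replicate 1 or 3, with edgeR adjusted p from 0.0505 to 0.103. That of *TNRC6A* was lost without replicate 1, 2 or 3 of wild-type, *AGO1/2* or *AGO1/2/3* knockout cells, *AGO1* knockout replicate 2 or *AGO2* knockout replicate 3, with edgeR adjusted p from 0.0554 to 0.169.

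The single knockouts moved fewer scaffolds. In *AGO1* knockout cells 0 of 3 TNRC6 genes passed the edgeR test, where 8.68% of all genes tested changed in either direction. *TNRC6B* had a log2 difference of 0.34 (SE 0.11, 95% interval 0.10 to 0.57, unadjusted p = 0.00765, adjusted p = 0.0725 by edgeR), and its groups of 3 libraries did not overlap, which held in the same direction for 10.2% of all genes tested. DESeq2's Wald test called it, with adjusted p = 0.024, as did edgeR without *AGO1* knockout replicate 1, with a log2 difference of 0.44 and adjusted p = 0.0312. At an unadjusted p under 0.05 it was the one TNRC6 gene in this comparison, since p was 0.935 for *TNRC6A* and 0.22 for *TNRC6C* in the same edgeR fit.

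In *AGO2* knockout cells 1 of 3 TNRC6 genes rose, where 8.55% of all genes tested rose. This was *TNRC6A*, at 1.46-fold (log2 difference 0.54, SE 0.16, adjusted p = 0.0335 by edgeR), and its call was lost without wild-type replicate 1 or 2, *AGO2* knockout replicate 2 or 3, *AGO1/2* knockout replicate 2, or *AGO1/2/3* knockout replicate 1, 2 or 3, with adjusted p from 0.0525 to 0.183. *TNRC6B* had a log2 difference of -0.00 with a 95% interval of -0.24 to 0.23, and *TNRC6C* one of -0.04 with an interval of -0.25 to 0.17. The files of the *AGO2* knockout libraries name another quantification mode than the rest, and mode and genotype cannot be told apart.

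**Figure D2:**
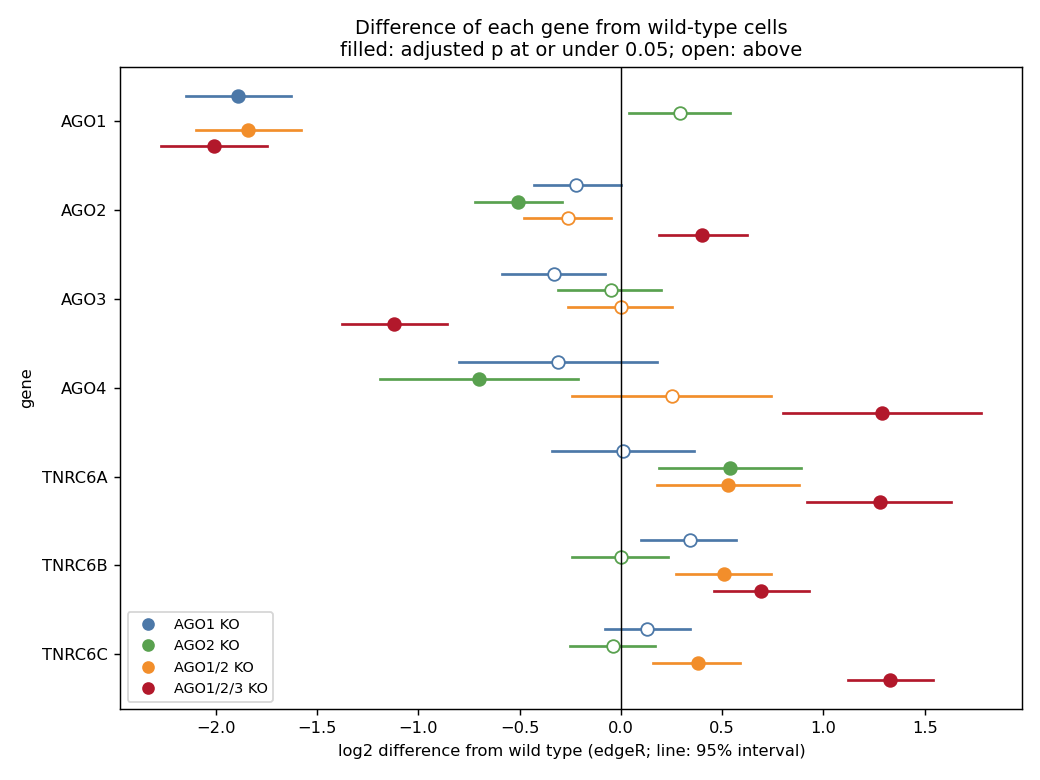
Log2 difference of each gene (vertical axis) from wild-type cells (horizontal axis) in the 4 knockout lines, with the 95% interval as a line. Filled points passed the edgeR test at an adjusted p at or under 0.05, and all 7 genes are filled for *AGO1/2/3* knockout cells, 5 above and 2 below 0.

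The step from *AGO1/2* to *AGO1/2/3* knockout cells was compared directly. *TNRC6C* rose 1.94-fold (log2 difference 0.96, SE 0.10, adjusted p = 6.95e-06 by edgeR) and *TNRC6A* 1.68-fold (log2 difference 0.75, SE 0.16, adjusted p = 0.00402), where 11.9% of all genes tested rose. *TNRC6B* had a log2 difference of 0.19 with a 95% interval of -0.05 to 0.42 and did not pass the test (adjusted p = 0.261 by edgeR). Whether the log2 differences of the 3 scaffolds differ from each other was not tested.

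Whether the effects of the *AGO1* and *AGO2* edits added up on the log2 scale in *AGO1/2* knockout cells was tested as an interaction. Among the 3 TNRC6 genes 0 departed from a sum in the edgeR fit, where 19.7% of all genes tested did, and 0 had an unadjusted p under 0.05. The interaction was -0.03 for *TNRC6A* (95% interval -0.52 to 0.46), 0.17 for *TNRC6B* (-0.16 to 0.50) and 0.29 for *TNRC6C* (-0.01 to 0.59), and DESeq2's Wald test also called 0 of the 3. Upward departures of up to 0.46 to 0.59 log2, and a downward one to -0.52 for *TNRC6A*, lie within these intervals. The contrast uses the *AGO2* knockout libraries, whose files name another quantification mode, so mode and genotype cannot be told apart.

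The AGO genes did not move as a family. *AGO1* (ENSG00000092847, chromosome 1 from 35869808 to 35930532) had 107.8 to 146.4 CPM in wild-type cells and 28.67 to 39.45 CPM in the 9 libraries in which it was edited, with no overlap. In *AGO2* knockout cells, where it is intact, it had 160.5, 157.9 and 160.9 CPM. The log2 difference from wild type, 0.29 (95% interval 0.04 to 0.54), did not pass the edgeR test (adjusted p = 0.0932). *AGO3* (ENSG00000126070, chromosome 1 from 35930718 to 36072500) had 112.4 ± 15.95 CPM in wild-type cells (SD, n = 3) and 46.06 to 57.42 CPM in *AGO1/2/3* knockout cells, the only line in which it was edited. There it fell (log2 difference -1.12, SE 0.12, adjusted p = 3.41e-06 by edgeR) with *AGO1* (-2.01, SE 0.12, adjusted p = 1.08e-08), where 19.8% of all genes tested fell. In the other 3 lines *AGO3* had 78.7 to 119.5 CPM and was not called by edgeR. Its log2 difference in *AGO1* knockout cells was -0.33 (95% interval -0.59 to -0.08, adjusted p = 0.106 by edgeR). Of the 31-base words in its transcripts, 7.03% also occur in transcripts of other genes, the highest share among the 7 genes, where the other 6 had 0.00852% to 2.25%, and its counts are the least certain in that respect.

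*AGO2* (ENSG00000123908, chromosome 8 from 140520156 to 140635633) kept much of its RNA in every line. It had 378.7, 459.2 and 381.8 CPM in wild-type cells and 334.3, 363.6 and 350.4 CPM in *AGO1* knockout cells, where it is intact. Its log2 difference from wild type there, -0.22, did not pass the edgeR test (adjusted p = 0.213). Where it was edited it had 261.8, 314.0 and 282.9 CPM in *AGO2* knockout cells and 320.7, 331.9 and 364.5 CPM in *AGO1/2* knockout cells. The *AGO1/2/3* knockout libraries had 517.7, 557.5 and 538.2 CPM, above every wild-type library, although the gene was edited there as well. Against wild type its RNA fell in *AGO2* knockout cells (log2 difference -0.51, SE 0.10, adjusted p = 0.00518 by edgeR), where 10.8% of all genes tested fell, had a log2 difference of -0.26 in *AGO1/2* knockout cells (adjusted p = 0.0924) and rose 1.32-fold in *AGO1/2/3* knockout cells (0.40, SE 0.10, adjusted p = 0.00477). The step from *AGO1/2* to *AGO1/2/3* knockout cells was an increase of 1.59-fold (log2 difference 0.67, SE 0.10, adjusted p = 0.000235 by edgeR).

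*AGO4* (ENSG00000134698, chromosome 1 from 35808016 to 35857890), the AGO gene left intact throughout, was the lowest of the 7 per length in wild-type cells. Its levels were 21.87, 28.53 and 24.81 CPM in wild-type cells, 17.09, 16.99 and 26.68 CPM in *AGO1* knockout cells and 20.33, 10.76 and 15.2 CPM in *AGO2* knockout cells. They were 21.94, 33.55 and 33.86 CPM in *AGO1/2* knockout cells and 69.38, 59.1 and 55.85 CPM in *AGO1/2/3* knockout cells. The last line stood apart, and the other lines overlapped wild type except *AGO2* knockout cells, which lay below it. Over wild type *AGO4* rose 2.45-fold in *AGO1/2/3* knockout cells (log2 difference 1.29, SE 0.23, adjusted p = 0.000346 by edgeR). From *AGO1/2* to *AGO1/2/3* knockout cells it rose 2.06-fold (log2 difference 1.05, SE 0.23, adjusted p = 0.00387 by edgeR). The decrease of *AGO4* in *AGO2* knockout cells (log2 difference -0.70, adjusted p = 0.0457 by edgeR) was lost without wild-type replicate 2 or 3, *AGO1* knockout replicate 2, *AGO2* knockout replicate 2 or 3, *AGO1/2* knockout replicate 3, or *AGO1/2/3* knockout replicate 2 or 3, with adjusted p from 0.053 to 0.17.

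To compare genes with each other, levels were divided by the exon length of each gene (CPM per kb). In wild-type cells *AGO2* led with 25.65 ± 2.88 CPM per kb (SD, n = 3). It was followed by *TNRC6B* with 9.574 ± 0.484, *AGO1* with 9.315 ± 1.45 and *TNRC6A* with 8.561 ± 1.10 CPM per kb, whose libraries overlapped. *AGO3* with 5.313 ± 0.754, *TNRC6C* with 4.306 ± 0.279 and *AGO4* with 3.377 ± 0.450 CPM per kb came next, each clear of the one before. With the length of the canonical transcript in place of all exons, *TNRC6A* moved to second place at 13.07 CPM per kb. *TNRC6A* was second to *AGO2* with the exon length too in *AGO1/2/3* knockout cells, at 20.72 ± 1.39 against 33.94 ± 1.26 CPM per kb, and *AGO4* at 8.278 ± 0.951 CPM per kb was above *AGO3* and *AGO1*.

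Summed scaffold RNA was set beside the summed RNA of intact *AGO* genes, a sum that loses a gene with each edit. The sum of *TNRC6A*, *TNRC6B* and *TNRC6C* was 22.44 ± 1.29 CPM per kb in wild-type cells, 25.46 ± 0.866 with *AGO1* knocked out, 26.20 ± 1.42 with *AGO2*, 31.52 ± 0.846 with both and 47.03 ± 1.11 CPM per kb with the 3 knocked out (SD, n = 3), the last being 209.6% of wild type. The sum over the *AGO* genes not edited in a line was 43.66 ± 2.70 CPM per kb in wild-type cells, 27.62 to 30.43 with *AGO1* knocked out, 18.57 ± 0.675 with *AGO2*, 9.312 ± 1.30 with both and 8.278 ± 0.951 CPM per kb with the 3. The libraries of the last 2 lines overlapped. Between them *AGO4* went from 4.012 to 8.278 CPM per kb, while *AGO3*, at 5.300 CPM per kb in *AGO1/2* knockout cells, left the sum. Scaffold RNA per intact *AGO* RNA was 0.516 ± 0.0576 in wild-type cells, 3.44 ± 0.620 in *AGO1/2* and 5.74 ± 0.743 in *AGO1/2/3* knockout cells. In *AGO1/2/3* knockout cells the intact *AGO* RNA is that of *AGO4* alone. The paper cites earlier mass spectrometry by its authors that detected no AGO4 protein in wild-type HCT116 cells. These are sums of RNA levels and hold no measure of protein.

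**Figure D3:**
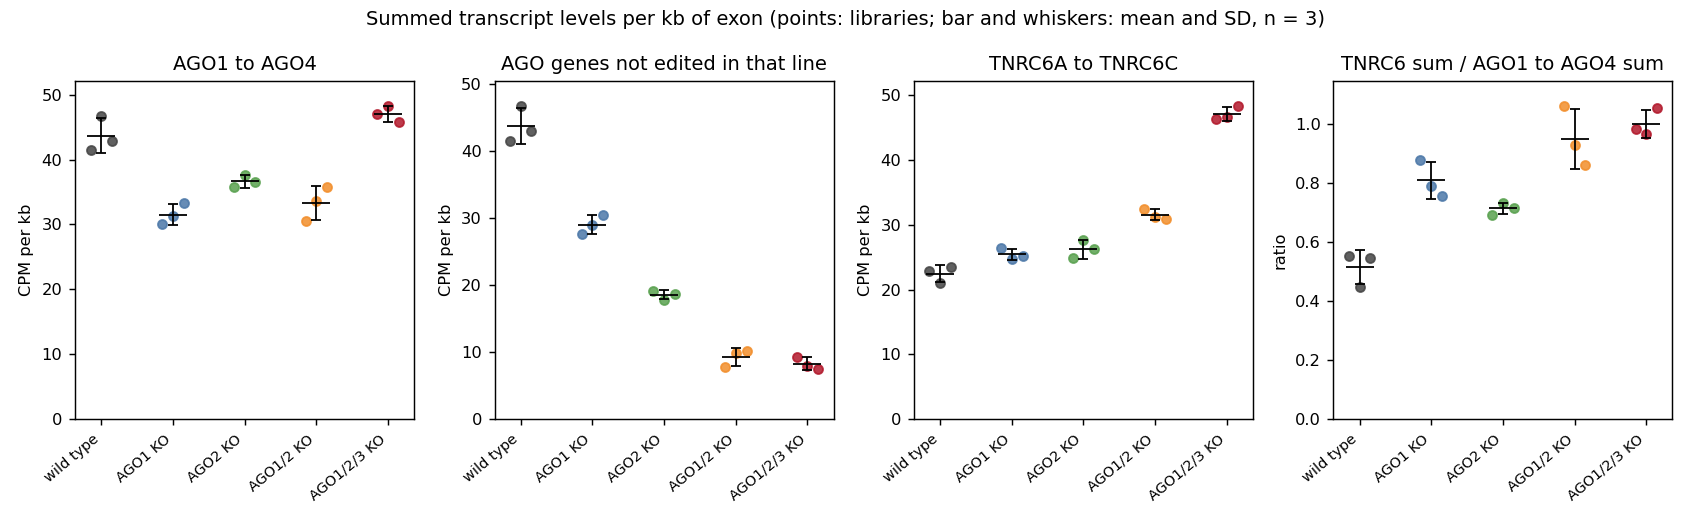
Summed levels in CPM per kb of exon (first 3 panels) and the ratio of the TNRC6 sum to the sum of all 4 *AGO* genes (last panel) in the 5 lines, with points for libraries and mean and SD over 3. The TNRC6 sum is highest in *AGO1/2/3* knockout cells at 47.03 CPM per kb, where the sum of unedited *AGO* genes is 8.278 CPM per kb.

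With RNA of edited genes counted too, the total over *AGO1* to *AGO4* was 43.66 ± 2.70 CPM per kb in wild-type cells and 31.52 ± 1.60, 36.63 ± 0.984 and 33.32 ± 2.63 CPM per kb in *AGO1*, *AGO2* and *AGO1/2* knockout cells (SD, n = 3). With the 3 knocked out the total came to 46.97 ± 1.26 CPM per kb, with libraries that overlapped wild type, and with total counts in place of TMM scaling the order of the 2 means turned, at 45.26 against 46.43 CPM per kb. RNA of the edited *AGO2* gene made up 72.26% ± 2.47 of that total in *AGO1/2/3* knockout cells, against 58.65% ± 3.09 in wild-type cells. The share of *AGO4* was 7.713% ± 0.565 in wild-type cells, 5.708% ± 1.91 with *AGO2* knocked out, 11.96% ± 2.02 with *AGO1* and *AGO2* and 17.62% ± 1.96 with the 3. The ratio of the TNRC6 sum to the total *AGO* sum was 0.516 ± 0.0576 in wild-type cells, 0.810 ± 0.0623 with *AGO1* knocked out, 0.715 ± 0.0196 with *AGO2*, 0.951 ± 0.102 with both and 1.002 ± 0.0481 with the 3, and the last 2 lines overlapped.

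Within the scaffold family the make-up shifted less than the sum. *TNRC6A* took 38.04% ± 2.84 of the TNRC6 sum in wild-type cells, 47.39% ± 5.39 in *AGO2* and 44.03% ± 1.90 in *AGO1/2/3* knockout cells. *TNRC6B* took 42.72% ± 2.31, 36.62% ± 4.49 and 32.93% ± 2.60 in the same lines, and *TNRC6C* 19.24% ± 1.78, 15.99% ± 0.909 and 23.04% ± 0.861 (SD, n = 3). The 3 shares of *AGO1/2/3* knockout cells did not overlap those of wild type, *TNRC6A* and *TNRC6C* being above and *TNRC6B* below. With canonical transcript length *TNRC6A* took 45.96% and *TNRC6B* 36.99% in wild-type cells, so their order depends on the length used. In *AGO1/2/3* knockout cells these shares were 52.09% and 27.93%.

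**Figure D4:**
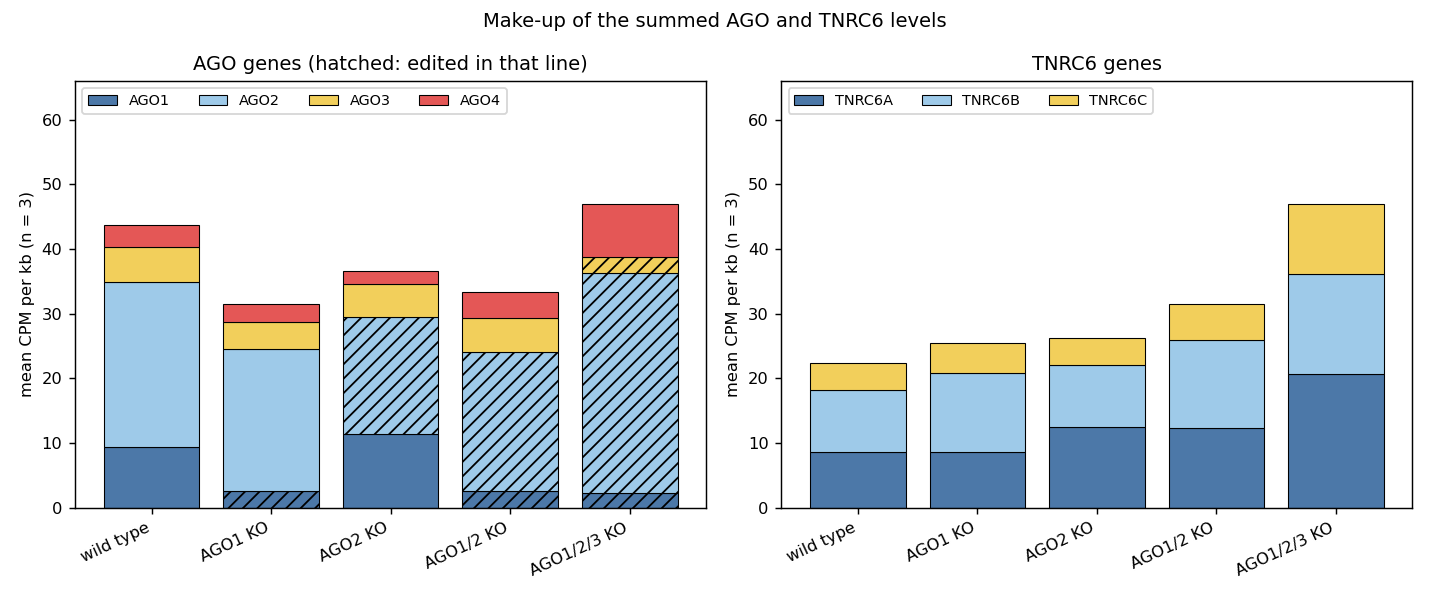
Mean level of each gene in CPM per kb of exon (n = 3), stacked within the *AGO* family (left) and the TNRC6 family (right) for the 5 lines, with hatching where the gene was edited in that line. Most of the *AGO* stack of *AGO1/2/3* knockout cells is hatched *AGO2* RNA, and its unhatched *AGO4* block is the largest of the 5 lines.

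The genes around the TNRC6 genes had median differences near 0. Within 2 Mb of *TNRC6A* lay 20 tested genes whose mean was 1 CPM or more. Among them the median log2 difference in *AGO1/2/3* knockout cells was -0.03, and 2 were called by edgeR, both higher. It was -0.02 among 72 genes near *TNRC6B*, of which 19 rose and 17 fell, and 0.09 among 59 genes near *TNRC6C*, of which 20 rose and 13 fell. The nearest genes of *TNRC6A* were *RBBP6*, with a log2 difference of -0.14 (adjusted p = 0.301 by edgeR), and *ARHGAP17*, with 0.37 (adjusted p = 0.0035). *FAM83F*, 1282 bases from *TNRC6B*, fell, with a log2 difference of -0.91 (adjusted p = 0.000256), and *ADSL* on its other side had -0.15 (adjusted p = 0.399). On the side of lower coordinates the gene nearest to *TNRC6C* was the unnamed ENSG00000267665, 422101 bases away, with a log2 difference of -0.89 (adjusted p = 0.0237 by edgeR).

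The 3′ end of *TNRC6C* overlaps *TMC6*, a gene for a membrane channel-like protein on the opposite strand. *TMC6* fell in *AGO1* knockout cells (log2 difference -1.18, adjusted p = 0.00418 by edgeR) and *AGO2* knockout cells (-1.05, adjusted p = 0.00687), and had 0.14 in *AGO1/2* and 0.09 in *AGO1/2/3* knockout cells (adjusted p = 0.734 and 0.774). Whether the overlap bears on the counts of *TNRC6C* was not tested. The library kit kept strand, and how the counting used it was not checked here.

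On chromosome 1 *AGO4*, *AGO1* and *AGO3* stand in a row, with 11917 bases between *AGO4* and *AGO1* and 185 bases between *AGO1* and *AGO3*. The 39 tested genes within 2 Mb of *AGO4* had a median log2 difference of -0.01 in *AGO1/2/3* knockout cells. *CLSPN*, a replication checkpoint gene 38037 bases from *AGO4*, is its nearest neighbour on the side away from *AGO1*. There *CLSPN* rose with a log2 difference of 1.40 (adjusted p = 0.00229 by edgeR), and *ADPRS* beyond *AGO3* had 0.15 (adjusted p = 0.478). In *AGO2* knockout cells *CLSPN* also rose (1.07, adjusted p = 0.03 by edgeR), while *AGO4* had -0.70. *CLSPN* had 0.71 in *AGO1* and 0.85 in *AGO1/2* knockout cells (adjusted p = 0.191 and 0.0787 by edgeR). Around *AGO2* the 16 genes within 2 Mb had a median of -0.40 in *AGO1/2/3* knockout cells, and 0 rose and 7 fell. In *AGO1/2* knockout cells, with *AGO3* still intact, the median was -0.49, and 0 rose and 10 fell. Of all 22842 genes tested, 1913 rose and 1907 fell there. Within 5 Mb, 4 of 94 genes rose and 69 fell in *AGO1/2/3* knockout cells, where 20.3% of all genes tested rose and 19.8% fell. In *AGO1/2* knockout cells 2 of the 94 rose and 66 fell. *AGO2* stood above the median within 2 Mb by 0.23 log2 in *AGO1/2* and by 0.81 in *AGO1/2/3* knockout cells. Within 1 Mb these values were 0.13 and 0.79, and within 5 Mb 0.42 and 1.20. The nearest entries to *AGO2*, ENSG00000279766 inside it and *ERICD*, had log2 differences of -0.17 and 0.33 there (adjusted p = 0.576 and 0.488 by edgeR).

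For each gene the 2 others with the most similar profile were found among the other genes of the 16083 whose mean was 1 CPM or more, by Pearson's r of log2 CPM over the 15 libraries, of which each 3 share a line. *TNRC6C* was closest to *MAP4K4* and *PRKD3*, both kinases, and *TNRC6A* to *GLYR1* and *MAPRE1*, the last a microtubule end-binding protein, all with r = 0.98. *TNRC6B* was closest to *TPP1*, a lysosomal peptidase, with r = 0.98 and *HOXB5*, a homeobox gene, with r = 0.96. *PRKD3* went from 24.79 CPM in wild-type to 112.0 CPM in *AGO1/2/3* knockout cells. For the *AGO* genes these were *KCTD12* (0.96) and *ENKD1* (0.94) for *AGO1*, *PTPRN2* and *RAPH1* (both 0.95) for *AGO2*, *OR51B4* (0.96) and *UNC13A* (0.95) for *AGO3*, and *DNAAF9* and *C11orf80* (both 0.98) for *AGO4*.

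The partners that TNRC6 recruits were called about as often as genes at large. Of 25 genes for deadenylase, decapping and poly(A)-binding factors, 5 rose and 6 fell in *AGO1/2/3* knockout cells, against 20.3% and 19.8% of all genes tested, with a median log2 difference of 0.12, and without *AGO1/2/3* knockout replicate 3 the number called went from 11 to 6. *DCP2*, the decapping enzyme, rose most, from 129.8 CPM in wild-type to 390.9 CPM (log2 difference 1.59, adjusted p = 1.04e-07 by edgeR), and had already risen in *AGO1/2* knockout cells (0.57, adjusted p = 0.00405). *PABPC1*, the main cytoplasmic poly(A)-binding protein, fell most, from 2774 to 1294 CPM (log2 difference -1.10, adjusted p = 8.83e-07). *CNOT1*, the scaffold of the CCR4-NOT complex, was chosen after its values were seen and had a log2 difference of 0.06 (adjusted p = 0.629). *PAN2*, the catalytic subunit of the other deadenylase and also chosen after its values were seen, fell in all 4 knockout lines, with log2 differences from -1.40 to -0.99 (adjusted p from 0.000351 to 0.00195 by edgeR).

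Among 8 genes whose products modify or turn over AGO proteins, 4 rose and 1 fell in *AGO1/2/3* knockout cells, where 20.3% of all genes tested rose and 19.8% fell, with a median log2 difference of 0.53, and without *AGO1/2/3* knockout replicate 3 the number called went from 5 to 3. *ANKRD52*, a subunit of the phosphatase complex that removes phosphates from AGO2, rose from 76.86 CPM in wild-type to 211.1 CPM in *AGO1/2* and 503.8 CPM in *AGO1/2/3* knockout cells (log2 difference 2.71, adjusted p = 3.12e-08 by edgeR). *PPP6C*, the catalytic subunit of that phosphatase and chosen after its values were seen, had a log2 difference of 0.86 (adjusted p = 3.3e-05). *P4HA1*, a prolyl hydroxylase subunit that acts on AGO2, fell (log2 difference -1.05, adjusted p = 0.0433 by edgeR). That call was lost with DESeq2's Wald test, with only the lines compared and without wild-type replicate 3, *AGO1* knockout replicate 1 or *AGO1/2/3* knockout replicate 1, 2 or 3.

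Of 11 genes for loading small RNA into AGO, 2 were called in *AGO1/2/3* knockout cells, both higher, where 20.3% of all genes tested rose, with a median log2 difference of -0.04, and without wild-type replicate 2 there were 4 called. *DICER1*, which cuts precursor microRNAs, rose most (log2 difference 1.47, adjusted p = 5.9e-08 by edgeR). In *AGO2* knockout cells 7 of the 11 rose, where 8.55% of all genes tested did, with a median of 0.74, and the number fell to between 2 and 4 without wild-type replicate 1 or 2, *AGO2* knockout replicate 2 or 3, *AGO1/2* knockout replicate 2 or *AGO1/2/3* knockout replicate 2. It was 3 with total counts only and 2 with only the lines compared. The 7 were chosen for naming after their values were seen and are *DICER1* with the chaperone genes *HSP90AA1*, *HSP90AB1*, *PTGES3*, *AHSA1*, *FKBP5* and *STIP1*, at log2 differences of 0.65 to 0.96. Of the 4 PIWI genes, the branch of the Argonaute family active in germ cells, 2 passed the filter on low counts and 0 were called in *AGO1/2/3* knockout cells by edgeR. These were *PIWIL2*, with a log2 difference of -0.76 (adjusted p = 0.0722), and *PIWIL4*, with -0.26 (adjusted p = 0.627). At an unadjusted p under 0.05 there was 1, DESeq2's Wald test called 0, and the 4 genes had line means of 0.0 to 1.167 CPM.

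**Figure D5:**
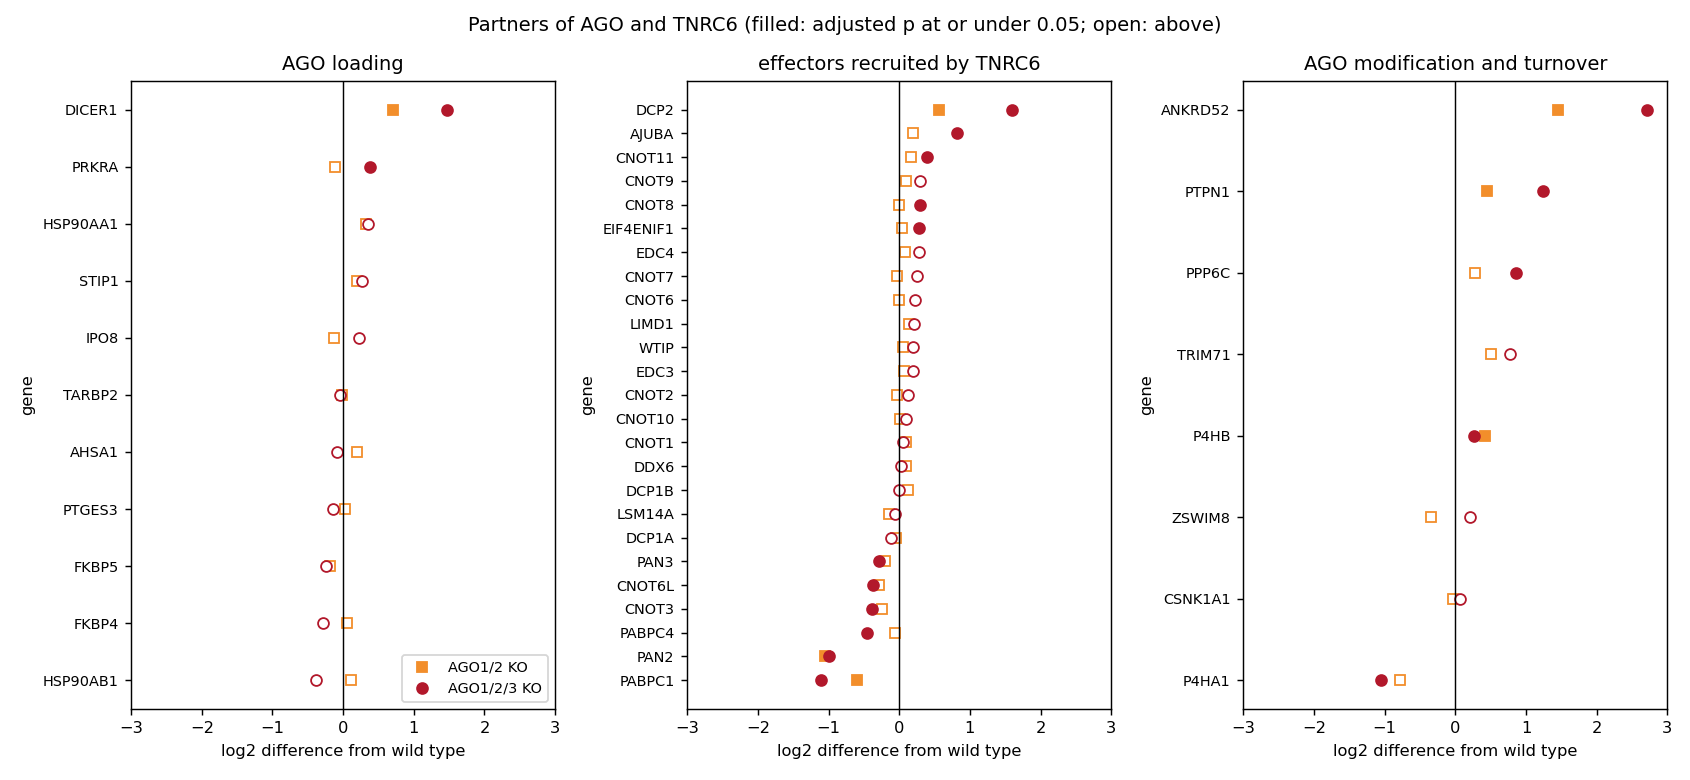
Log2 difference from wild-type cells (horizontal axis) of the genes of 3 lists of AGO and TNRC6 partners (vertical axis, ordered by the value in *AGO1/2/3* knockout cells), with squares for *AGO1/2* and circles for *AGO1/2/3* knockout cells, filled where the adjusted p was at or under 0.05. *ANKRD52* at 2.71, *DCP2* at 1.59 and *DICER1* at 1.47 lead their lists, and *PABPC1* at -1.10 is lowest among the recruited effectors.

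The lines differed in many other genes, epithelial markers among them. *CDH1* (E-cadherin) went from a mean of 97.71 CPM in wild-type to 8.567 CPM in *AGO1/2/3* knockout cells and *EPCAM* from 212.7 to 63.55 CPM, while *KRT8*, *KRT18* and *KRT19* had means of 264.8 to 1086 CPM in every line and *VIL1* was near 0 in all, at 0.288 CPM or less. Of 5 markers of fibroblasts, blood and endothelium, *COL1A1* gave most of the summed level, whose line means ran from 13.27 to 28.70 CPM, and the other 4 stayed under 2 CPM. The part of these differences in the TNRC6 and *AGO* results was not tested. In bulk RNA, fewer cells that express a gene and less of its RNA per cell cannot be told apart.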

How the data were processed

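RNA was sequenced from 3 replicates of each of 5 HCT116 lines after ribosomal RNA depletion, as stranded paired-end libraries. After alignment to hg38 by STAR, the authors used Salmon for gene quantification, and the deposited values are estimated counts without scaling for depth. The submitters' processing notes name STAR 2.5.3a and Salmon 0.11.0, and the methods name other versions. A Salmon mode unlike that of the rest is named in the *AGO2* knockout files, and the transcriptome release was not checked here.

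Estimated counts were rounded. Low genes were removed with filterByExpr, and counts were scaled by TMM and fitted in edgeR 4.0.16 (R 4.3.3) with a mean for each line. Quasi-likelihood p-values were Benjamini-Hochberg adjusted over 22842 genes and called at 0.05 or under. As an alternative the Wald test of DESeq2 1.42.0, a tool the methods also name, was used. The step was tested on simulated counts. Positions, exon lengths and 3′-UTRs are from GENCODE 44 on GRCh38, which holds 57167 of the 57875 genes listed. Python 3.11.15 served for tables (pandas 2.3.3, numpy 2.4.6) and plots (matplotlib 3.10.9).

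The genes, partner lists and tests were chosen with earlier results of these data known. Named genes were the 7 members, the called gene with the largest increase and decrease in each partner list in *AGO1/2/3* knockout cells, the 2 most similar profiles for each member and its nearest tested gene at 1 CPM or more on each side. No list was given a set test. The methods call the replicates biological, and as no source used here ties them to separate cultures, p-values measure the spread between these libraries. A two-sided exact permutation test of 3 libraries against 3 cannot give p under 0.1. Alternatives were other size factors, total counts only, DESeq2's Wald test, other filters, the replicate number as a block, only the lines compared, each of 15 libraries left out, other windows around the genes and, chosen after seeing the data, canonical transcript length and the partner lists under the same settings. The 8 eCLIP samples were not analysed here.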

Additional observations from a re-analysis of the deposited data

Results flagged for a closer look

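The effect of the *AGO1* edit on *AGO4* RNA differed between the lines with and without intact *AGO2*. This contrast uses the *AGO2* knockout libraries, whose files name another quantification mode, so mode, line and genotype cannot be told apart. The log2 difference was -0.31 from wild-type to *AGO1* knockout cells (SE 0.23), and the interaction, the amount by which the effect in *AGO2* knockout cells exceeded it, was 1.26 (SE 0.33, adjusted p = 0.0146 by edgeR), where 11.5% of all genes tested were called in this direction. The 3 *AGO1/2* knockout libraries, at 21.94 to 33.86 CPM, lay above the 3 *AGO2* knockout libraries, at 10.76 to 20.33 CPM. The call was kept in all 7 other settings and in all 15 fits that left out 1 library, with log2 values of 1.05 to 1.52 in the latter.

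The same interaction passed the test for *AGO2* RNA, at 0.46 (SE 0.14, adjusted p = 0.0335 by edgeR). *AGO2* was edited in both lines that carry the *AGO2* change, so this compares RNA of edited genes in separately made lines, and line and genotype cannot be told apart. It was lost in 3 of 7 other settings, with adjusted p from 0.0519 to 0.152. It was also lost without wild-type replicate 2, *AGO1* knockout replicate 1, 2 or 3, *AGO2* knockout replicate 1 or 3 or *AGO1/2* knockout replicate 2 or 3, with adjusted p from 0.0535 to 0.113.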

How the results depend on the processing

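In *AGO1/2/3* knockout cells the 7 genes kept their direction and call under every alternative run. For the other lines, 1 gene was called in *AGO1* knockout cells and 2 with total counts only (*AGO3* added, -0.42) or DESeq2's Wald test (*TNRC6B* added, 0.34). The count went from 3 to 1 in *AGO2* and from 4 to 2 in *AGO1/2* knockout cells with only the lines compared, which leaves 6 libraries, and from 2 to 1 for the interaction with DESeq2 size factors, no filter or only the lines compared. With 1 library left out the counts ranged from 1 to 2 in *AGO1*, 1 to 3 in *AGO2* and 2 to 4 in *AGO1/2* knockout cells and 1 to 2 for the interaction. With total counts only *TNRC6A* lost its call in *AGO2* and *AGO1/2* knockout cells (0.42 and 0.44) and *TNRC6C* in the latter (0.28), and *AGO2* gained one there (-0.35), as it did with the Wald test (-0.27). *TNRC6C* also lost its call there with no filter (0.37). The cause was not tested.

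Signs turned only for differences near 0. *TNRC6A* in *AGO1* knockout cells went from 0.01 to -0.07 with total counts only and ranged from -0.18 to 0.19 with 1 library left out, and its interaction went from -0.03 to 0.09 and ranged from -0.23 to 0.17. *TNRC6B* in *AGO2* knockout cells went from -0.00 to 0.01 with DESeq2 size factors, 0.02 with the Wald test and 0.04 with no filter, and ranged from -0.08 to 0.03. *AGO3* ranged from -0.15 to 0.04 in *AGO2* and from -0.09 to 0.10 in *AGO1/2* knockout cells.

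Total counts only moved the median log2 difference of all genes to -0.10, -0.14, -0.08 and -0.15 in the 4 knockout lines and to 0.17 for the interaction. It took called genes from 725 higher and 1257 lower to 511 and 1985 in *AGO1*, from 1952 and 2456 to 733 and 3593 in *AGO2*, from 1913 and 1907 to 1394 and 2597 in *AGO1/2* and from 4644 and 4522 to 3459 and 5962 in *AGO1/2/3* knockout cells, and from 2618 and 1887 to 3467 and 1228 for the interaction. With only the lines compared, called genes went from 1982 to 658 in *AGO1*, from 4408 to 1868 in *AGO2* and from 3820 to 2116 in *AGO1/2* knockout cells.

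Summed *AGO* levels with total counts only were 46.43 CPM per kb in wild-type and 45.26 in *AGO1/2/3* knockout cells, and TNRC6 sums 23.85 and 45.3. With canonical transcript length *AGO* sums were 46.56, 33.85, 38.89 and 50.3 CPM per kb in wild-type, *AGO1*, *AGO2* and *AGO1/2/3* knockout cells, TNRC6 sums 28.37, 31.71, 34.17, 39.97 and 60.71 in the 5 lines in order, and their ratios 0.6124, 0.94, 0.878, 1.126 and 1.208. Unedited *AGO* genes then summed to 31.27 with *AGO1* and 19.28 with *AGO2* knocked out. The median around *AGO2* in *AGO1/2/3* knockout cells was -0.79 within 5 Mb, and that around *TNRC6C* 0.23 within 1 Mb and -0.04 within 5 Mb. Of the turnover genes 3 were called with only the lines compared, and of the PIWI genes 1 with total counts only. Leaving out 1 library gave 2 to 4 loading, 6 to 11 effector, 3 to 5 turnover and 0 to 1 PIWI genes.

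Deviations of libraries with the same replicate number had a mean correlation of -0.0114 over 30 pairs, of which 8 exceeded 0.1, and the numbers were taken not to pair libraries. In 16 of 60 cases a library correlated best with its own number in another line. With the replicate number as a block, 1, 2, 3, 7, 5 and 2 genes were called in the 6 comparisons, against 1, 3, 4, 7, 5 and 2 without it. The calls lost were *AGO4* in *AGO2* (log2 -0.70, adjusted p = 0.0625 by edgeR) and *TNRC6A* in *AGO1/2* knockout cells (0.52, adjusted p = 0.0575). The block also ended the call of *P4HA1* in *AGO1/2/3* knockout cells and gave 5 loading genes higher in *AGO2* knockout cells, against 7 without it. Depth was 27709971 counts or more a library, and 3 libraries a line set the intervals given.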
